A study of Arabidopsis thaliana with 12 samples.

Results

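The regions described here are 7201 H3K4me2 peaks of wild-type Arabidopsis thaliana leaves that lie on a gene and carry no H3K4me3, called H3K4me2-only peaks below. They were taken from the 20585 H3K4me2 peaks of wild type. A peak was kept when no H3K4me3 peak of wild type overlapped it by 1 bp, when it touched at least 1 gene locus of the RNA table, and when it lay outside 5 pericentromeric windows of 4.8 to 7 Mb. Of the 8063 H3K4me2 peaks with no H3K4me3, 161 touched no gene and 701 lay in a window. The peaks were thus chosen by the measured wild-type H3K4me2 and H3K4me3 lists and by position, and their values in those lists are given as a description.

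The study looked for the genes and regions that depend on ATX3, ATX4 and ATX5, putative H3K4 methyltransferases, in rosette leaves of 4-week-old plants of the Col-0 ecotype. The plants were kept at 22 °C through 16 h of light and at 20 °C through 8 h of dark. The groups were an atx3/4/5 mutant (H3K4me2, H3K4me3 and RNA), an sdg2 mutant (H3K4me3), and wild type (H3K4me2, H3K4me3 and RNA). The mutant alleles are not given in the sources used here, and SDG2, also called ATXR3, is a further H3K4 methyltransferase. Each peak list came from 1 ChIP-seq library, so no ChIP value has a replicate check. The authors merged 2 RNA-seq libraries per genotype into 1 value.

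H3K4me3 is laid down mainly over the 5′ part of transcribed genes. H3K4me2 reaches further into gene bodies and, in plants, is also found over genes with little or no transcription. SET-domain enzymes of the trithorax type, such as the ATX and SDG proteins, add these methyl groups.

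The ChIP lists differed in size and score. The atx3/4/5 H3K4me2 list held 16650 peaks with a median score of 127.7, against 20585 peaks and 197.0 in wild type. The score is the peak caller's own value, higher for a more significant peak, and read depth is unknown. The H3K4me3 lists held 13622 peaks in atx3/4/5 and 15569 in sdg2, against 14496 in wild type. The RNA was that of leaves: the median of 15 photosynthesis genes was 7480 FPKM (fragments scaled by transcript length and library size) in wild type. All 16 embryo and seed genes, 10 of 13 root genes and 18 of 24 floral and meristem genes were under 1 FPKM there. In the authors' deposited table ATX3 had 4.38 FPKM in atx3/4/5 and 4.17 FPKM in wild type, ATX4 had 2.88 and 1.05 FPKM, and ATX5 had 3.76 and 3.93 FPKM, in the same order, and none was called. These are values of whole genes and the sites of the mutations are not given, so they do not check the genotype label. ATX3 and ATX4 themselves each carried 3 H3K4me2-only peaks, and SDG2 carried 2. SDG2 had 3.55 FPKM in atx3/4/5 and 0.884 FPKM in wild type and was called higher (log2 ratio 2.01, q = 0.00184, authors' deposited table).

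H3K4me2-only peaks were smaller and weaker than H3K4me2 peaks that share a site with H3K4me3. Their median width was 938 bp and their median score 120.1, against 1281 bp and 281.2 for the 11497 genic peaks with H3K4me3 outside the windows. A score under 100 was given to 40.6% of the H3K4me2-only peaks, against 14.9% of the peaks with H3K4me3. H3K4me2-only peaks made up 35.0% of all wild-type H3K4me2 peaks and 7.83 of 26.2 Mb of H3K4me2. Just inside the rule, 293 of them had an H3K4me3 peak within 100 bp, with a median score of 123.6 and a median width of 951 bp. Just outside it, 260 peaks overlapped H3K4me3 by at most 100 bp, with a median score of 131.1 and a median width of 1070 bp. The median distance from an H3K4me2-only peak to the nearest H3K4me3 peak was 1665 bp, and 12.0% lay more than 5 kb away.

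The peaks fell on 6538 genes, 19.6% of the 33278 nuclear genes, and these genes were of 2 kinds. In 3517 genes no H3K4me3 peak touched the locus at all. The other 3021 genes carried H3K4me3 elsewhere in the locus. The median locus was 1819 bp long in the genes free of H3K4me3 and 4554 bp long in those with H3K4me3 elsewhere, against 2459 bp for genes with both marks and no H3K4me2-only peak. Where a peak touched 1 gene only, its centre lay more than 0.25 of the locus length from either end in 67.0% of cases. The share was 59.5% on genes free of H3K4me3 and 77.3% on genes with H3K4me3, against 65.3% for peaks with H3K4me3. On genes free of H3K4me3 the peaks covered a median of 62.4% of the locus, and on genes with H3K4me3 elsewhere 30.4%. Most genes carried 1 such peak (5355 genes), and 283 carried 3 or more. AT4G17140 carried 10. ATM, a kinase of the DNA damage response, carried 9, and TOR, a growth-controlling kinase, carried 8.

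The widest H3K4me2-only peak lay in BIG, which encodes a giant protein needed for auxin transport, at chr3:438330-443664 of TAIR10. It was 5335 bp wide, and BIG carried 4 further H3K4me2-only peaks. All 5 had an H3K4me2 peak in atx3/4/5. The next widest, of 5038 bp, lay in the locus that the table gives both to SYD, a SWI/SNF chromatin remodelling ATPase, and to the pseudogene AT2G28280. A peak of 4716 bp spanned AT3G51560 and AT3G51570, and one of 4378 bp spanned AT1G64255 and AT1G64260, 4 genes under 1 FPKM in both genotypes. CESA10, a cellulose synthase family gene, had a peak of 4490 bp over most of its locus of 5256 bp, with 0.00793 FPKM in atx3/4/5 and 0.0390 FPKM in wild type.

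Genes with an H3K4me2-only peak and no H3K4me3 were mostly silent or barely transcribed in wild-type leaves, a measure the rule did not use. Their median was 0.267 FPKM, and 2382 of 3517 (67.7%) were under 1 FPKM. Genes with an H3K4me2-only peak and H3K4me3 elsewhere had a median of 4.90 FPKM, with 18.5% under 1 FPKM. Genes with both marks and no H3K4me2-only peak had a median of 10.6 FPKM, with 9.98% under 1. Genes with H3K4me3 alone had a median of 24.1 FPKM. Low RNA was not particular to H3K4me2-only peaks among genes free of H3K4me3. Genes with no peak had a median of 0 FPKM, with 89.7% under 1. The 485 genes with other H3K4me2 peaks and no H3K4me3 had a median of 0.0473 FPKM, with 80.8% under 1. Over both kinds, 45.0% of the 6538 genes were under 1 FPKM, beside 48.4% of all nuclear genes. Over 10 FPKM stood 233 of the 3517 genes free of H3K4me3.

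**Figure D1:**
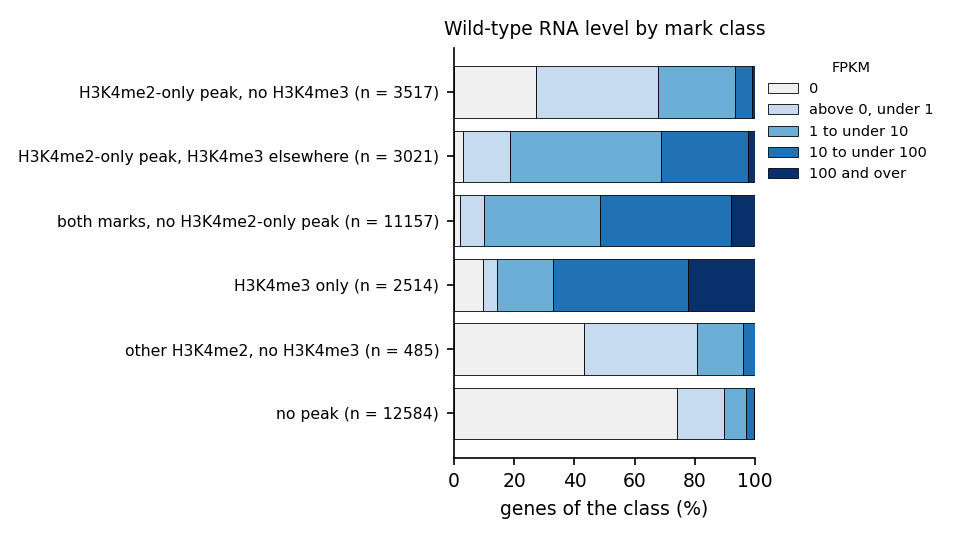
Share of nuclear genes (x axis, percent) in 5 ranges of wild-type FPKM for each class of marks (y axis). In the top bar, genes with an H3K4me2-only peak and no H3K4me3, 67.7% of genes are under 1 FPKM, against 18.5% where H3K4me3 lies elsewhere in the locus. The share is 80.8% for other H3K4me2 without H3K4me3 and 89.7% for genes with no peak.

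A small number of these genes were abundant. AT4G29020 had the highest value among the genes with a locus of their own, 311.9 FPKM in atx3/4/5 and 1268 FPKM in wild type, and it was called lower (q = 0.0113 in the authors' deposited table). GSTU20, a glutathione transferase, had 555.1 FPKM in atx3/4/5 and 1025 FPKM in wild type and was not called (q = 0.254 in the authors' deposited table). FSD1, an iron superoxide dismutase, had 242.0 and 696.0 FPKM in the same order (q = 0.0511, authors' deposited table). GASA1, of a gibberellin-regulated family, had 547.1 and 481.3 FPKM, and ELIP1, an early light-induced protein, had 410.9 and 455.5 FPKM, again with atx3/4/5 first. AAP2, an amino acid permease, had 145.1 FPKM in atx3/4/5 and 449.8 FPKM in wild type, AT5G45350 had 129.4 and 415.0 FPKM, and GRP5, a glycine-rich protein, had 69.6 and 336.1 FPKM, in the same order, and the authors' deposited table called all 3 lower. These 8 genes had high RNA and no H3K4me3 peak in wild type. The H3K4me2-only peaks of GSTU20, AT5G45350, AAP2 and GASA1 were weak, with scores of 51.1, 54.7, 58.1 and 85.15. Such peaks fall away when a score of at least 100 is asked for. The highest score was 256.55 at AT4G29020, 140.6 at FSD1, 888.4 at ELIP1 and 451.7 at GRP5. CRB, a chloroplast RNA-binding protein (AT1G09340), and APA1, an aspartic proteinase, had H3K4me3 elsewhere in the locus. Their H3K4me2-only peaks were weak too, with scores of 62.64 and 54.75. CRB had 401.3 FPKM in atx3/4/5 and 869.9 FPKM in wild type, and APA1 had 313.1 and 479.0 FPKM, and neither was called.

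Gene families differed in how many genes carried an H3K4me2-only peak and no H3K4me3. Of 26687 protein-coding genes, 12.5% carried an H3K4me2-only peak and no H3K4me3. The share was 25.2% for receptor-like kinases (35 of 139 genes), 24.4% for homeobox genes (20 of 82), 24.2% for cytochrome P450 genes (52 of 215) and 24.0% for ABC and MATE transporters (35 of 146). Their exact 95% intervals began at 18.2%, 15.6%, 18.6% and 17.3%. Shares of 19.4% for UDP-glycosyltransferases, 18.4% for MADS-box genes, 17.2% for ERF/AP2 genes, 16.5% for NAC genes, 15.4% for MYB genes and 11.1% for WRKY genes had intervals that held 12.5%. Ribosomal protein genes stood at the other end, with 0 of 62 (upper bound 5.78%), and 61 of the 62 carried H3K4me3. Pentatricopeptide repeat genes, whose products act on organelle RNA, had 4 of 78 without H3K4me3 but 22 with an H3K4me2-only peak beside H3K4me3. With H3K4me3 elsewhere allowed, an H3K4me2-only peak was carried by 27.4% of cytochrome P450 genes, 30.9% of receptor-like kinase genes, 35.4% of homeobox genes and 39.0% of ABC and MATE transporter genes, beside 23.4% of protein-coding genes, and the intervals of the P450 and receptor-like kinase genes held 23.4%. Families were assigned by the names in the RefSeq table, so unnamed members were missed.

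**Figure D2:**
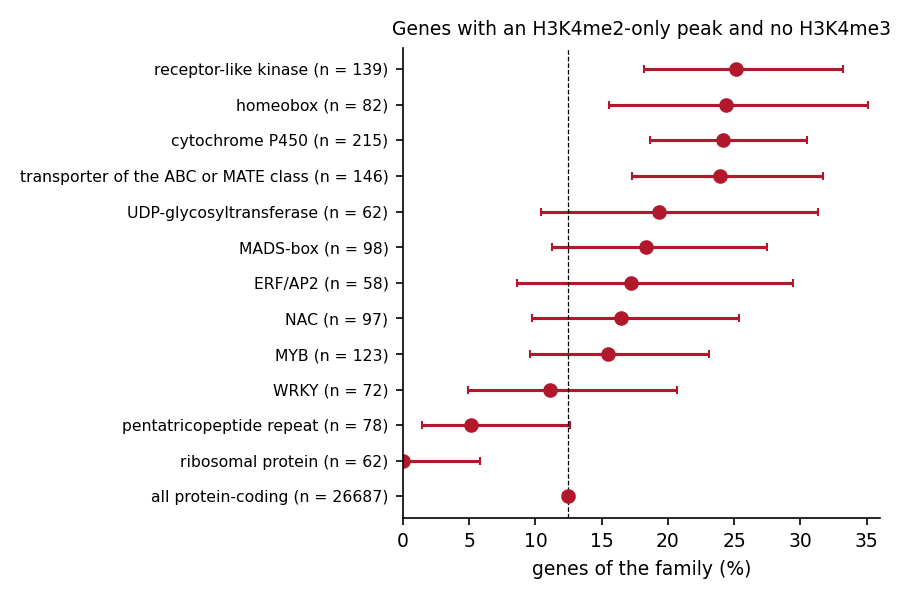
Share of the genes of each family (x axis, percent) that carry an H3K4me2-only peak and no H3K4me3 in wild type, for the 12 families with at least 50 named genes (y axis), and for all protein-coding genes in the bottom row and as a dashed line. Bars are exact 95% binomial intervals. Receptor-like kinases, homeobox genes, cytochrome P450 genes and ABC and MATE transporters lie at 24.0% to 25.2%, right of the line at 12.5%.

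Other kinds of gene differed widely. Among long non-coding RNA genes 57 of 224 (25.4%) carried an H3K4me2-only peak, close to the 23.4% of protein-coding genes. Pseudogenes carried one in 1.56% of cases and transcribed pseudogenes in 9.61%. Transfer RNA genes carried one in 4.98% of cases. These shares are over all nuclear genes of a kind, also those in the windows, where the rule allows no H3K4me2-only peak. The part of position and of locus length in the shares was not tested.

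In atx3/4/5, 3700 of the 7201 H3K4me2-only peaks had no H3K4me2 peak (51.4%, exact 95% interval 50.2% to 52.5%). Of the genic peaks with H3K4me3, 2028 of 11497 had none (17.6%, 16.9% to 18.3%), and of all wild-type H3K4me2 peaks 31.5%. Such intervals, here and below, cover counting error only. The share was 53.2% on genes free of H3K4me3 and 49.3% on genes with H3K4me3 elsewhere. It ran from 50% to 52.7% over the 5 chromosomes, and it was 51.4% for the 701 H3K4me3-free peaks in the windows. By bases, H3K4me2 peaks of atx3/4/5 covered 43.6% of the H3K4me2-only peaks and 68.3% of the peaks with H3K4me3. Since the atx3/4/5 list was the smaller one and had lower scores, the part of sequencing depth in these shares was not tested.

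Weak peaks were absent more often in both classes, and at each level of score the H3K4me2-only peaks were absent more often. All wild-type H3K4me2 peaks were divided by score into 5 quintiles. In the lowest quintile, 69.9% of H3K4me2-only peaks and 54.5% of peaks with H3K4me3 were absent. In quintile 2 the shares were 54.9% and 35.0%, in quintile 3 38.1% and 15.8%, and in quintile 4 32.6% and 5.66%. In the highest quintile 27.4% of H3K4me2-only peaks (181 of 661) were absent, against 5.36% of peaks with H3K4me3 (172 of 3206). Weighted to the scores of the H3K4me2-only peaks, the share for peaks with H3K4me3 was 31.4%, and weighted to score and width it was 33.0%.

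**Figure D3:**
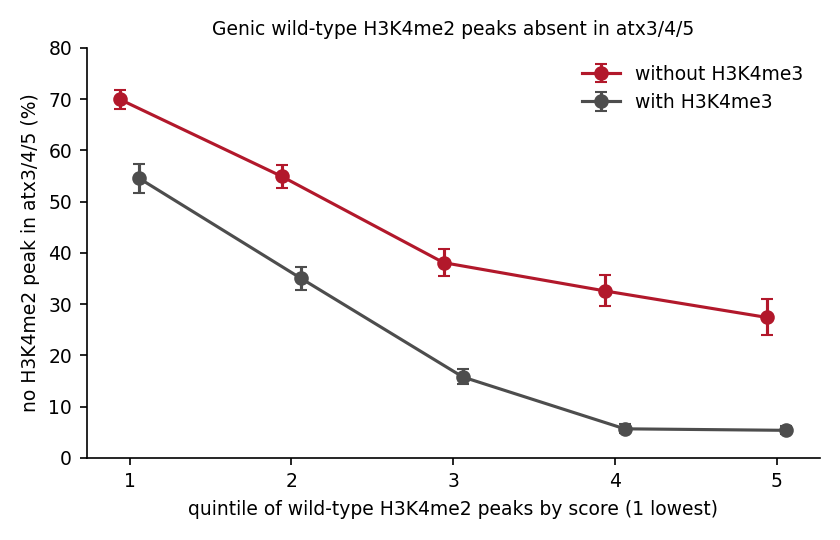
Share of genic wild-type H3K4me2 peaks with no H3K4me2 peak in atx3/4/5 (y axis, percent) for peaks without (red) and with (grey) H3K4me3 in wild type, by quintile of the peak score (x axis). Bars are exact 95% intervals, for counting error only. The red points run from 69.9% down to 27.4% and lie above the grey ones in all 5 quintiles.

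The 3501 peaks that were kept became narrower. Their median width was 903 bp of H3K4me2 in atx3/4/5, against 1138 bp in wild type, and 82.5% were narrower. Peaks with H3K4me3 narrowed about as often, in 86.2% of those kept. Only 6.83% of the kept H3K4me2-only peaks were split into more than 1 peak.

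The highest-scoring peaks missing in atx3/4/5 lay on AT1G77790, on AT3G27415 and AT3G27416, on UGT72E2, on AT5G09430, and on AT4G16640, with scores of 2226, 2199, 2159, 2072 and 2012. The peak on AT5G09430 overlapped that locus by 748 bp and its neighbour TOC64-V by 6 bp. UGT72E2 encodes a glucosyltransferase of monolignols, the precursors of lignin. It had 2.94 FPKM in atx3/4/5 and 0.241 FPKM in wild type and was called higher (q = 0.0284, authors' deposited table) while its H3K4me2 peak at chr5:26625020-26626689 was absent. All 5 of these sites carried an H3K4me3 peak in sdg2. Their scores are in the highest quintile, where 66.7% of H3K4me2-only peaks did so. Over all scores, 16.9% of the absent and 15.1% of the kept H3K4me2-only peaks carried H3K4me3 in sdg2.

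H3K4me3 appeared on a part of the H3K4me2-only peaks in sdg2, the mutant of another H3K4 methyltransferase. Of the 7201 peaks, 1153 overlapped an H3K4me3 peak of sdg2 (16.0%, 15.2% to 16.9%), against 16.1% of all 8063 wild-type H3K4me2 peaks without H3K4me3. By the rule the share in wild type is 0. In atx3/4/5 the share was 4.37% (315 peaks, 3.91% to 4.87%), against 4.34% over the 8063. The atx3/4/5 and sdg2 shares rest on the same wild-type lists, and 87 peaks had H3K4me3 in both mutants. When an overlap had to cover at least 50% of the wild-type peak, in choosing the peaks as well, the sdg2 share was 7.83% of 10417 peaks.

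The sdg2 share followed the strength of H3K4me2 in wild type. It was 3.95% in the lowest quintile of scores, then 7.09%, 13.2% and 33.1%, and 66.7% in the highest quintile (441 of 661 peaks, 63.0% to 70.3%). In atx3/4/5 the shares over the same quintiles were 2.94%, 3.49%, 5.29%, 6.94% and 6.66%. In the highest quintile, 68.8% of peaks on genes free of H3K4me3 and 52.9% of peaks on genes with H3K4me3 had an H3K4me3 peak in sdg2. With overlaps of at least 50%, in choosing the peaks as well, 21.4% of 1444 peaks in the highest quintile did. That larger set takes in peaks with wild-type H3K4me3 over less than 50% of their width.

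**Figure D4:**
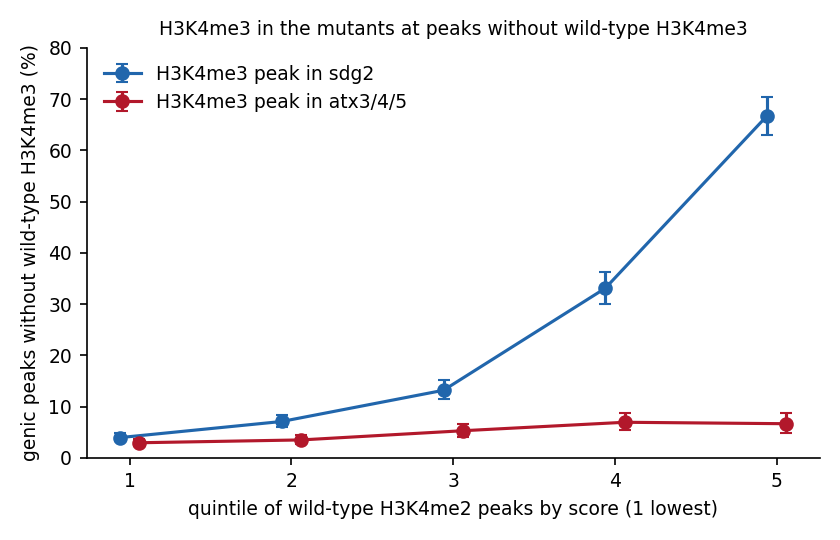
Share of H3K4me2-only peaks that overlap an H3K4me3 peak of sdg2 (blue) or of atx3/4/5 (red) (y axis, percent), by quintile of the wild-type H3K4me2 score (x axis). Bars are exact 95% intervals, for counting error only. The sdg2 share reaches 66.7% in the highest quintile, and the atx3/4/5 share stays under 7%.

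Seen from the sdg2 list, 1730 of its 15569 H3K4me3 peaks (11.1%) overlapped no H3K4me3 peak of wild type, and 1174 of those (67.9%) lay on an H3K4me2-only peak. They were narrow and weak for that list. Their median width was 521 bp and their median score 106.2, against 697 bp and 465.5 for sdg2 peaks over a wild-type H3K4me3 peak. Of the 1178 sdg2 peaks that touched an H3K4me2-only peak, 4 extended from a wild-type H3K4me3 peak. In atx3/4/5, 497 H3K4me3 peaks had no counterpart in wild type, and 249 of them (50.1%) lay on an H3K4me2-only peak. There, 60 of 309 such peaks extended from a wild-type H3K4me3 peak. The mutant peaks without a wild-type counterpart and the H3K4me2-only peaks were both chosen for lacking the same wild-type H3K4me3. The rule thus favours their overlap. Of the H3K4me3 peaks over a wild-type H3K4me3 peak, 77.2% in sdg2 and 80.9% in atx3/4/5 overlapped a wild-type H3K4me2 peak of any kind. The rule was also applied to the atx3/4/5 lists alone, which gave 5713 peaks, and 722 of these (12.6%) had H3K4me3 in wild type.

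In the highest quintile of scores, 27.4% of H3K4me2-only peaks were absent in atx3/4/5 and 66.7% carried H3K4me3 in sdg2. The 10 highest-scoring H3K4me2-only peaks were all kept in atx3/4/5 and all carried an H3K4me3 peak in sdg2. The first, at chr2:17367764-17368888 with a score of 3233, lay on MIZ1, which is needed for the growth of roots toward water. MIZ1 had 1.39 FPKM in atx3/4/5 and 2.25 FPKM in wild type. The second, with a score of 3182, lay on NCED9, an abscisic acid synthesis gene of seeds listed at 0 FPKM in both genotypes. The third, with a score of 3100, lay on NRT2.5, a high-affinity nitrate transporter. NRT2.5 also carried H3K4me3 in atx3/4/5, with 10.7 FPKM there and 2.59 FPKM in wild type (q = 0.00907, authors' deposited table). JAL34, a jacalin-related lectin gene, was the other of the 10 with H3K4me3 in atx3/4/5, with 9.23 FPKM there and 1.74 FPKM in wild type (q = 0.00184, authors' deposited table). VIM1, which helps to maintain DNA methylation, had 7.04 FPKM in atx3/4/5 and 4.40 FPKM in wild type and was not called. The remaining 5 were AT5G46730, AT4G20730, AT3G10100, UNE9 and AT1G20500. AT5G46730 had 128.5 FPKM in atx3/4/5 and 154.2 FPKM in wild type, and the other 4 were under 1 FPKM in both genotypes.

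The order of the sdg2 shares over RNA levels differed between the 2 kinds of gene. On genes free of H3K4me3 in wild type, the peaks with H3K4me3 in sdg2 made up 9.87% where the gene was at 0 FPKM, 25% between 0 and 1, 36.3% between 1 and 10, and 38.0% from 10 FPKM up. The median score of the H3K4me2-only peaks in the same bins was 126.3, 164.4, 171.4 and 171.0. On genes with H3K4me3 elsewhere the sdg2 shares in the same bins were 7.69% (13 peaks), 5.31%, 2.15% and 3.31%, with no rise. The atx3/4/5 shares were 1.52%, 3.75%, 10.1% and 18.6% on genes free of H3K4me3, and 0%, 1.45%, 2.15% and 2.74% on genes with H3K4me3 elsewhere. On genes free of H3K4me3, absence of H3K4me2 in atx3/4/5 showed no such order, at 51.7%, 54.5%, 55.5% and 48.1%. No RNA of sdg2 was analysed here.

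The RNA of atx3/4/5 against wild type is given by the authors' deposited table, in which a gene is called at a q under 0.05. Over all 19021 tested genes 10.3% were called, 4.92% higher and 5.4% lower. Of the 4307 tested genes with an H3K4me2-only peak, 365 were called higher (8.47%) and 167 lower (3.88%). In the 1554 tested genes free of H3K4me3, 150 were higher (9.65%) and 121 lower (7.79%). In the 2753 with H3K4me3 elsewhere, 215 were higher (7.81%) and 46 lower (1.67%). Genes with both marks and no H3K4me2-only peak had 342 of 10517 higher (3.25%) and 482 lower (4.58%). These classes differed in locus length, and calls by length are given below. The labels do not say if the 2 libraries of a genotype are from separate plants, and the deposited p-values may reflect technical spread only. In whole leaves, fewer cells of a type and less RNA per cell cannot be told apart.

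The median change differed with the length of the locus, and the kinds of gene differed in length. Among genes with at least 1 FPKM in both genotypes, the median log2 ratio of atx3/4/5 over wild type was 0.28 for all genes with an H3K4me2-only peak. It was -0.10 for those free of H3K4me3 and 0.39 for those with H3K4me3 elsewhere, beside -0.06 for all nuclear genes. In this table the ratio followed locus length: the median over all genes was -0.64 in the shortest of 10 deciles and 0.68 in the longest. After the median of each length decile was taken off, in genes with a locus of their own, the medians were 0.06 without H3K4me3, 0.08 with H3K4me3 elsewhere and 0.03 for both marks without an H3K4me2-only peak, all of 1 sign. The calls differed with length as well. In the longest decile of these genes, 92 of 771 with H3K4me3 elsewhere were called higher. Beside them stood 6 of 49 without H3K4me3, 54 of 472 with both marks and no H3K4me2-only peak, and 154 of 1351 of all. In the shortest decile 49 of 1353 of all were called higher. The part of locus length in the calls was not tested.

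**Figure D5:**
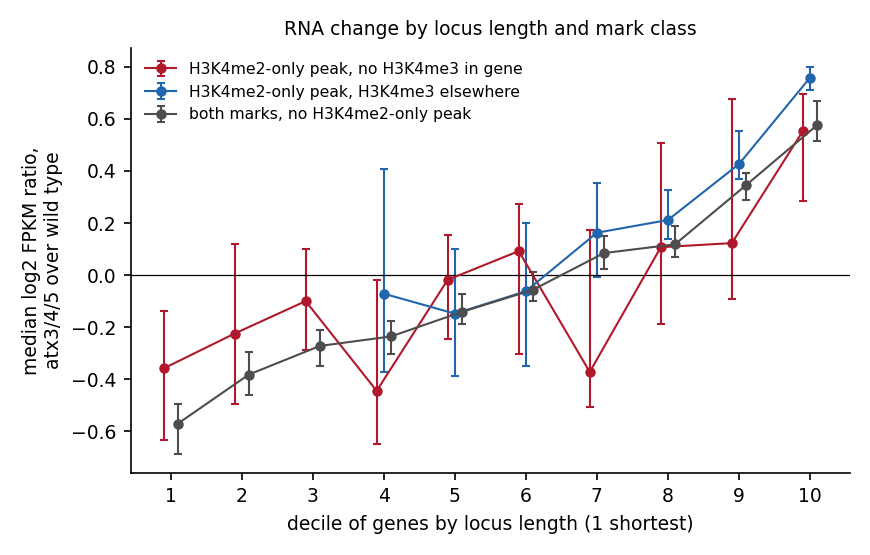
Median log2 ratio of FPKM, atx3/4/5 over wild type (y axis), by decile of locus length (x axis), for genes with an H3K4me2-only peak and no H3K4me3 (red), with one and H3K4me3 elsewhere (blue), and with both marks and no H3K4me2-only peak (grey). Points with under 20 genes are left out, and bars are 95% order-statistic intervals of the median over genes, which are not replicates. All 3 classes are highest in the longest decile, at 0.55, 0.76 and 0.58.

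Genes with an H3K4me2-only peak were split by the fate of their H3K4me2 in atx3/4/5, beside 4.92% called higher and 5.4% called lower over all tested genes. In genes free of H3K4me3 where every H3K4me2-only peak was absent, 46 of 751 tested genes were called higher (6.13%) and 80 lower (10.7%), with a median log2 ratio of -0.41. Where every such peak was kept in these genes, 94 of 689 were higher (13.6%) and 37 lower (5.37%), with a median log2 ratio of 0.13. The median locus was 1586 bp where every peak was absent and 1929 bp where every peak was kept. In genes with H3K4me3 elsewhere and every H3K4me2-only peak absent, 60 of 1223 were higher (4.91%) and 27 lower (2.21%), with a median log2 ratio of 0.25 and a median locus of 4071 bp. With every such peak kept, 97 of 1190 were higher (8.15%) and 16 lower (1.34%), with a median log2 ratio of 0.45 and a median locus of 4500 bp.

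Genes on which H3K4me3 appeared in atx3/4/5 were often called higher, against 4.92% of all tested genes. Of 212 tested genes free of H3K4me3 in wild type whose H3K4me2-only peak carried H3K4me3 in atx3/4/5, 75 were called higher (35.4%, 29.0% to 42.2%) and 5 lower, with a median log2 ratio of 0.91. In genes with H3K4me3 elsewhere, the authors' deposited table called 24 of 101 higher and 0 lower (2 had a lower value at an unadjusted p under 0.05). Both the mark and the RNA come from the mutant set against the same wild type, and the ChIP library has no replicate. After NRT2.5 and JAL34, the highest-scoring such peaks lay on AT5G60250, AT4G10265 and AT1G52000. AT5G60250 had 9.77 FPKM in atx3/4/5 and 0.481 FPKM in wild type and was called higher (q = 0.00184, authors' deposited table). AT4G10265 had 5.61 and 0.866 FPKM and AT1G52000 had 32.4 and 14.0 FPKM, in the same order, and neither was called.

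The 10 largest rises were taken among called genes with an H3K4me2-only peak, a locus of their own and at least 1 FPKM in both genotypes, and they included several defence genes. CHI, a chitinase gene, had 313.0 FPKM in atx3/4/5 and 5.21 FPKM in wild type (60.1-fold higher, q = 0.00184, authors' deposited table). BGL2, the pathogenesis-related glucanase also called PR2, had 764.0 FPKM in atx3/4/5 and 21.5 FPKM in wild type (35.5-fold higher). Its neighbour BG3, another glucanase gene, had 49.3 and 2.33 FPKM, and TAT3, a tyrosine aminotransferase gene of the jasmonate response, had 61.9 and 3.26 FPKM, in the same order. CRK7, a cysteine-rich receptor-like kinase gene, had 31.2 FPKM in atx3/4/5 and 1.91 FPKM in wild type, and GRXS13, a glutaredoxin gene, had 64.2 and 4.90 FPKM. AT5G09570, AT5G13210, AT2G21640 and AT2G45220 were the other 4 of these 10, from 15.4-fold to 44.8-fold higher. Called genes under 1 FPKM in wild type, such as PAD3 and AT5G60250, were outside this ranking. The q-value in the authors' deposited table was 0.00184 for all 10. The H3K4me2-only peak was kept in 6 of the 10, and in CHI, BGL2, TAT3, AT5G13210 and CRK7 it carried H3K4me3 in atx3/4/5. Over all 6538 genes with such a peak, 43.4% kept every one. Of all H3K4me2-only peaks, 4.37% carried H3K4me3 in atx3/4/5. At BGL2 the peak lay at chr3:21188732-21189784, within a locus of 1343 bp.

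The 10 largest falls were taken with the same floor of 1 FPKM. In none did H3K4me3 appear on the peak in atx3/4/5. Over all H3K4me2-only peaks it did so on 4.37%, so this does not set the falls apart. AT4G16850 had 1.12 FPKM in atx3/4/5 and 16.0 FPKM in wild type (14.4-fold lower, q = 0.00184, authors' deposited table). ASPGB1, an asparaginase gene, had 1.89 and 26.9 FPKM in the same order (14.3-fold lower), and AGL87, a MADS-box gene, had 1.60 and 15.1 FPKM (9.41-fold lower). TKPR2, which acts in the synthesis of the pollen wall polymer sporopollenin, had 1.47 FPKM in atx3/4/5 and 12.1 FPKM in wild type. AT5G59130, AT5G44050, AT3G24460, AT5G41900, AT1G01250 and AT3G22540 were the other 6, from 6.44-fold to 9.13-fold lower. Of the 10, the H3K4me2-only peak was absent in atx3/4/5 in 8 and kept in AT4G16850 and AGL87. Over all 6538 genes with such a peak, 47.0% lacked every one and 43.4% kept every one. The absent peaks of AT5G59130, AT3G24460 and AT5G41900 had scores of 75.63, 60.93 and 57.97. These scores are in the lowest quintile, where 69.9% of H3K4me2-only peaks were absent. AT5G41900 alone among the 10 had H3K4me3 elsewhere in its locus.

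The gene lists below are to be read against all genes: 23.4% of protein-coding genes carried an H3K4me2-only peak, and of those 6245 genes 47.2% lacked every such peak in atx3/4/5 and 43.1% kept every one. H3K4me3 lay on such a peak in sdg2 in 1043 of the 3517 genes free of H3K4me3 and in 264 of the 3021 with H3K4me3 elsewhere. In atx3/4/5 it did so in 244 and 108 of them. The lists are short, and no test was made of their counts. SEP1, SHP1, SHP2, OLEO1, NPR1, WRKY40, WRKY53, LHCA4 and LHCB3 share their locus with another gene. Their counted peaks may lie on that gene.

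Salicylic acid defence genes, which act against pathogens, carried H3K4me2-only peaks in 6 of 12 cases, and all 6 kept them in atx3/4/5. The authors' deposited table called 5 of the 6 higher, beside 4.92% of all tested genes. PAD3, which makes the antimicrobial camalexin, had 21.9 FPKM in atx3/4/5 and 0.695 FPKM in wild type. PBS3, an enzyme of salicylic acid synthesis, had 22.5 and 2.24 FPKM in the same order. H3K4me3 appeared in atx3/4/5 on the H3K4me2-only peaks of PAD3, PBS3 and PR2, the 3 of the 6 with no H3K4me3 in wild type. ICS1, which starts salicylic acid synthesis, had 46.6 FPKM in atx3/4/5 and 13.7 FPKM in wild type, and PAD4, a regulator of immunity, had 46.8 and 15.7 FPKM, both with H3K4me3 elsewhere in the locus. NPR1, the salicylic acid co-receptor, had 23.9 FPKM in atx3/4/5 and 10.9 FPKM in wild type and was not called (q = 0.147, authors' deposited table). Over the whole list 9 of 12 tested genes were called higher and 0 lower.

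Floral and meristem identity genes carried H3K4me2-only peaks in 9 of 24 cases, and in 7 of the 9 every such peak was absent in atx3/4/5. No gene of the list was called in either direction among 15 tested in the authors' deposited table, and 1 was lower at an unadjusted p under 0.05. LFY, which turns shoot meristems into flowers, had 0.320 FPKM in atx3/4/5 and 0.0743 FPKM in wild type and was not tested. Its H3K4me2 was absent in atx3/4/5 and it carried H3K4me3 in sdg2, as did FUL, KNAT6 and CUC3. FUL, a MADS-box gene of fruit and flowering, had 4.43 FPKM in atx3/4/5 and 2.23 FPKM in wild type. CUC1, an organ boundary gene, kept its H3K4me2 peak, with 0.606 FPKM in atx3/4/5 and 0.442 FPKM in wild type.

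Embryo and seed genes carried H3K4me2-only peaks in 7 of 16 cases, with no H3K4me3 on them in either mutant. The peaks were kept in atx3/4/5 on ABI3, a seed maturation regulator, and on the storage protein genes CRA1, CRC and SESA2. They were absent on LEC1, an embryo regulator, on AGL15 and on OLEO1, an oil body protein gene. All 7 genes were under 1 FPKM in wild type, and none was tested by the authors. In the root list PLT2, a root stem cell regulator, lacked its peak in atx3/4/5 and SHR, a regulator of root radial pattern, kept it.

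In the flowering time list 4 of 16 genes carried H3K4me2-only peaks. FLC, the main repressor of flowering, had its peak at chr5:3178917-3179511 with a score of 364.7, absent in atx3/4/5 and with H3K4me3 in sdg2. FLC had 0.546 FPKM in atx3/4/5 and 0.591 FPKM in wild type and was not tested. Its relatives MAF4 and MAF5, with wild-type peak scores of 109.2 and 52.3, also lacked H3K4me2 in atx3/4/5. MAF5 had 0.0513 FPKM there and 2.30 FPKM in wild type and was not called (q = 0.464, authors' deposited table), and MAF4 had 0.0346 and 0.510 FPKM in the same order and was not tested. CO, the photoperiod regulator, kept its H3K4me2.

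Hormone synthesis genes carried H3K4me2-only peaks in 8 of 24 cases, and 6 of the 8 had H3K4me3 on them in sdg2. These were IPT3 (cytokinin), TAA1 (auxin), NCED9 (abscisic acid), GA20OX2 and GA3OX2 (gibberellin) and LOX4 (jasmonate). The peaks of NCED9 and IPT3 had scores of 3182 and 985.9, in the highest quintile, where 66.7% carried H3K4me3 in sdg2. Of the 8 genes, all but NCED9 and GA20OX2 were tested in the authors' deposited table. It called none of these 6, of which 2 had lower values with an unadjusted p under 0.05. The auxin carrier genes PIN2, PIN6 and LAX2 all lacked their H3K4me2-only peaks in atx3/4/5, and LAX2 had 12.5 FPKM there and 37.8 FPKM in wild type (q = 0.0121, authors' deposited table). EPF1, a peptide that limits stomata, lacked its peak and had 7.63 FPKM in atx3/4/5 and 23.7 FPKM in wild type (q = 0.0369, authors' deposited table). The wild-type peaks were weak, with scores of 55.45 and 65.5 at LAX2 and 62.56 at EPF1. In that lowest quintile of scores 69.9% of H3K4me2-only peaks were absent. SPCH, which starts the stomatal lineage, kept 1 of 2 peaks.

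Leaf polarity and growth regulators carried H3K4me2-only peaks in 6 of 21 cases and the authors' deposited table called none of the 21, with 0 at an unadjusted p under 0.05. Plasmodesmata-located protein genes carried H3K4me2-only peaks in 2 of 7 cases, PDLP5 and PDLP8, and both lacked them in atx3/4/5. PDLP5 carried H3K4me3 there and in sdg2, with 11.4 FPKM in atx3/4/5 and 3.95 FPKM in wild type (q = 0.0469, authors' deposited table). PDLP8 carried H3K4me3 in neither mutant, with 4.23 and 5.00 FPKM in the same order, and was not called (q = 0.815, authors' deposited table). Over the whole list 1 of 7 tested genes was called higher and 1 lower. Among inducible stress factors 3 of 12 carried such peaks, namely CBF1, WRKY40 and WRKY53, and the authors' deposited table called none of the 3, with 0 at an unadjusted p under 0.05. In the photosynthesis list 2 of 15 did, LHCA4 and LHCB3, and both had H3K4me3 elsewhere in the locus. Both share their locus, of 8269 and 8026 bp, with another gene, so the H3K4me2-only peaks may lie on a neighbour. LHCA4, a photosystem I antenna gene, had 3041 FPKM in atx3/4/5 and 11048 FPKM in wild type (q = 0.0261, authors' deposited table). In the list of reference genes 2 of 9 did, PP2AA3 and SAND, and neither was called.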

How the data were processed

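The authors' peak lists and RNA table were taken unchanged. Bowtie 1.0.1, MACS 1.4.2, TopHat2 2.0.10, Cufflinks 2.2.1 and the build TAIR10 are named, without their roles, per the submitters' processing notes. Each peak list came from 1 library against an input. The score is that of the authors' deposited lists, used within a list, and the lowest was 50. For RNA the authors deposited a single FPKM per genotype, made from 2 libraries, beside a p-value and a q-value, and the spread between libraries is unknown. Inputs were not analysed here, read depth is unknown, and 0 columns of per-sample values were left unused.

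Overlap meant at least 1 bp, and absent meant no overlapping peak of the mutant. Locus starts of the RNA table count from 0 (1 below RefSeq in 39.0% of matched loci) and are given from 1. Genes that overlap share 1 locus in the table (4249 of 33557), near-identical copies may share reads, and counting by strand is not stated. Names and gene types came from RefSeq (TAIR10.1) for 32810 identifiers, for names only. Log2 ratios carry no pseudocount. Shares have exact Clopper-Pearson 95% intervals. No test was run here on the single ChIP libraries, and no sequence was analysed here. Peaks and gene lists (13 lists, 191 genes, and 18 families, of which 12 had at least 50 named genes) were chosen with earlier results of these data known. Named were the 10 highest-scoring and 5 widest peaks, the 5 highest-scoring that were absent, or had H3K4me3, in a mutant, the 10 largest called rises and falls (own locus, at least 1 FPKM in both genotypes), the 10 most abundant genes that share no locus, and list genes. ATX3, ATX4, ATX5 and SDG2, and the genes with the most peaks, were named after their values were seen. Overlaps were tested on simulated data. Python 3.11.15, numpy 2.4.6, pandas 2.3.3 and scipy 1.17.1 were used.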

Additional observations from a re-analysis of the deposited data

How the results depend on the processing

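Of 68 recomputed values 38 stayed within the interval (counts: within 1.5 times) of the value reported, 29 moved and 1 changed sign. With peaks of a score of at least 100 in every list there were 4670 H3K4me2-only peaks. Of these 63.6% were absent in atx3/4/5, against 27.3% of peaks with H3K4me3, and 34.5% of their bases were covered. H3K4me3 lay on 5.70% in atx3/4/5 and on 17.9% in sdg2 (60.5% in the highest quintile), and 46.7% of all genes with such a peak were under 1 FPKM, against 45.0% as reported. With overlaps of at least 50% of the wild-type peak, the peaks were chosen anew. The 10417 peaks then include some with wild-type H3K4me3 over less than 50% of their width. Of these 10417 peaks 48.7% were absent, against 22.6% of peaks with H3K4me3, and 53.0% of their bases were covered. The sdg2 share was 7.83% (21.4% in the highest quintile), 70.8% of sdg2 H3K4me3 peaks without a wild-type counterpart lay on an H3K4me2-only peak, 35.1% of genes were under 1 FPKM and 71.4% of peaks were centred more than 0.25 of the locus from its ends (67.0% as reported).

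With no H3K4me3 within 500 bp, the sdg2 share was 17.1%, 58.8% of sdg2 peaks without a counterpart lay on an H3K4me2-only peak, 48.2% of genes were under 1 FPKM, the median log2 ratio was 0.33 and 64.7% of peaks were central. For genes with a locus of their own, 47.9% were under 1 FPKM and the median log2 ratio was 0.35. For genes with no H3K4me3, 67.7% were under 1 FPKM, 150 were called higher, and the median log2 ratio turned to -0.10. At a threshold of 0.5 FPKM the share of low genes was 35.9%, and with a pseudocount of 1 and no filter the median log2 ratio was 0.033. At a q under 0.01 the authors' deposited table called 175 of the 4307 tested genes with an H3K4me2-only peak higher and 63 lower. The share over all tested genes at that q was not computed. The causes of these shifts were not tested. The score, overlap, distance and locus alternatives for 3 results (the highest quintile, sdg2 peaks without a counterpart, and genes with H3K4me3 in atx3/4/5) were chosen after seeing the data.

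No paired analysis was possible because the RNA table gives 1 value per genotype and each ChIP group holds 1 library. For the same reason no replicate was left out. The planned description of promoter sequences was not run.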
